A study of Homo sapiens with 12 samples.

Results

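A run of 48 genes in band 17p13, on the short arm of chromosome 17, was followed from MYBBP1A to TMEM256 in A375 cells, an established human melanoma line. The genes were chosen by measured values: running medians of the knockout-to-wild-type ratio over neighbouring genes were above 0 there in both treatments, so the higher level in knockout cells is a description of the choice and not a tested result. All 48 symbols were found among the 56609 in the count table, and 44 of them had enough reads to be tested. The untested members were CHRNE, with 0 to 15 counts per library, ZFP3 with 3 to 9, SLC16A11 with 1 to 8 and YBX2 with 0 to 3. In the GENCODE 29 annotation (GRCh38) the run spans chr17:4538897-7404137, which is 2865 kb, with 19 members on the plus strand and 29 on the minus strand. The members are not all consecutive: 34 other tested genes lie among them, and 958724 bases separate NLRP1 from KIAA0753.

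The 12 libraries, 3 per group, came from 4 kinds of culture. Wild-type cells and cells whose MAPKAPK2 gene had been knocked out with CRISPR/Cas9 were each kept for 48 h with the solvent DMSO or with 500 nM JQ1. MAPKAPK2 is a protein kinase downstream of p38 MAP kinase, and JQ1 blocks the acetyl-lysine pockets of BET bromodomain proteins, which help to start and extend transcripts. The study asked how loss of MAPKAPK2 affects resistance to BET inhibitors. Whether the knockout line was 1 clone or a pool, and whether replicates were separate cultures, is not given in the sources used here, so p-values measure the spread between these libraries, which may be technical.

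Libraries held 25316565 to 34594025 estimated read counts. MAPKAPK2 itself read 11.1 to 15.7 counts per 1000000 counts (CPM) in the 6 knockout libraries and 87.9 to 120 CPM in the 6 wild-type libraries. Of 10 melanocyte-lineage markers, 6 reached 5 CPM in every library, SOX10 and MITF among them. PMEL, MLANA, TYR and DCT did not, with medians of 0.644, 0.667, 0.0546 and 0.21 CPM over the libraries. None of 10 markers of leukocytes, endothelium, epithelium and fibroblasts reached 1 CPM in every library. Some passed it in single libraries, KRT14 the highest at 2.09 CPM with a median of 0.949 CPM. The third knockout JQ1 library stood apart from its replicates. Its counts differed from theirs by a chi-square per degree of freedom of 27.9 and 29.5, against 3.5 to 8.04 for the other pairs within groups. Some results, but not all, are also given without it.

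Band 17p13 is gene-dense, and its genes share a place on the chromosome more than a pathway. Their products include a profilin that feeds actin filaments, a proteasome subunit, mitochondrial enzymes and carriers, and nuclear regulators of transcription. Many are housekeeping genes with CpG-rich promoters, and many start head to head with a neighbour on the other strand, from a short stretch of DNA shared by both. Neighbours lie on the same DNA, so its copy number and its chromatin can act on many of them at once. Neither was measured by these counts, and neither was tested.

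RefSeq promoters (GRCh38.p14, from 250 bases before to 50 bases after the transcript start) were found for 40 of the 48 members. GGT6, CXCL16, PSMB6, RABEP1, DHX33, NLRP1, RNASEK and SLC16A13 had no entry. Where a gene had several promoters the one listed first was used for counts. Printed here 5′ to 3′ on the gene's own strand are those of the first and the last member (MYBBP1A and TMEM256), of PFN1, which had the highest CPM, and of RPAIN and KCTD11, with the highest and the lowest knockout-to-wild-type ratio averaged over treatments among members of at least 5 CPM. Capitals mark the GC box GGGCGG and the CCAAT box on either strand, the reverse strand reading as CCGCCC and ATTGG. The windows are chr17:4555335-4555634 (minus strand) for MYBBP1A, chr17:4948481-4948780 (minus) for PFN1, chr17:5419932-5420231 (plus) for RPAIN, chr17:7351912-7352211 (plus) for KCTD11 and chr17:7404048-7404347 (minus) for TMEM256.
MYBBP1A: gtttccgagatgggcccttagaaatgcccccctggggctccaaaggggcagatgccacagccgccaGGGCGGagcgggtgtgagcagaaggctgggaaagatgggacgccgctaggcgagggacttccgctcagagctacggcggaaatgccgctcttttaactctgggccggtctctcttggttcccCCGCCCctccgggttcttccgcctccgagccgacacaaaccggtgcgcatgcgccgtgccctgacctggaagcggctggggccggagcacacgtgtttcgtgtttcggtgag
PFN1: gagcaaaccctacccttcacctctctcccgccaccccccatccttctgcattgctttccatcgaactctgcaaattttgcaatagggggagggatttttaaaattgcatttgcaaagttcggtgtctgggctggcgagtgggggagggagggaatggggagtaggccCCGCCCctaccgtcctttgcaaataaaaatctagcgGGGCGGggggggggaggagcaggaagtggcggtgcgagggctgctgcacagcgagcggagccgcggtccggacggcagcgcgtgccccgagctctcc
RPAIN: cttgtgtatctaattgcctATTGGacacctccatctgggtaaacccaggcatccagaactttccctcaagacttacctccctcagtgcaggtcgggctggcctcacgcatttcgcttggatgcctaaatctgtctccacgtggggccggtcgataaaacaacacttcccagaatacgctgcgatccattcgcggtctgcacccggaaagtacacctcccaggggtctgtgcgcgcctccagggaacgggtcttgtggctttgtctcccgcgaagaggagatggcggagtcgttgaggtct
KCTD11: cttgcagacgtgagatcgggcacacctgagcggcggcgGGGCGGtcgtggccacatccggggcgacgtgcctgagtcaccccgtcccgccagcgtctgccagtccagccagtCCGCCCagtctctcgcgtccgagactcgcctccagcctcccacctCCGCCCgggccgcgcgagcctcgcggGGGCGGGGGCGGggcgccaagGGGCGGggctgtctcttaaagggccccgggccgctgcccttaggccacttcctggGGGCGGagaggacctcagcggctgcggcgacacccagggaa
TMEM256: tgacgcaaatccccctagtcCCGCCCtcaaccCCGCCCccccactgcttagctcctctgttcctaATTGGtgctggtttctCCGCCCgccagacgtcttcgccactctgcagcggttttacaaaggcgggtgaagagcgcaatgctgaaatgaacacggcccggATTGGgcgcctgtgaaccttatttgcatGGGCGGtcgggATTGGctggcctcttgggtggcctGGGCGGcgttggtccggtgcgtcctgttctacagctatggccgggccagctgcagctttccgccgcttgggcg

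The KCTD11 window held 7 GC boxes and no CCAAT box, and that of TMEM256 held 5 GC boxes and 3 CCAAT boxes. MYBBP1A and PFN1 each had 2 GC boxes, and RPAIN had none and 1 CCAAT box. Over the members, 31 of 40 promoters (77.5%) held GGGCGG, against 44.6% of 27305 RefSeq promoters. CCAAT was in 32.5% of members and 35.7% of all promoters, and TATAAA in 5.0% and 12%. Median GC content was 66.0% in members and 58.3% in all promoters. The median knockout log2 fold change, averaged over treatments, was 0.46 in 28 tested members with GGGCGG and 0.40 in 8 without it, a description of genes chosen for values above 0. These matches describe letters and show no binding.

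With either treatment the members' RNA stood about 1.3 times higher in knockout than in wild-type cells. The median log2 fold change over the 44 tested members was 0.40 in DMSO (1.32-fold) and 0.42 in JQ1 (1.34-fold), while over all 21698 tested genes it was -0.005 and -0.002. Positive values were found for 42 of 44 members in each treatment. In DMSO, 31 members were called higher and 1 lower at an adjusted p of 0.05, and the percent called among all tested genes was 3.47 higher and 4.44 lower. In JQ1, 28 were called higher and 2 lower, beside 3.01 and 5.56 percent of all tested genes. Both counts follow from how the members were chosen, and nothing is read from them. Over 19 alternative settings the median stayed between 0.36 and 0.47 in DMSO and between 0.35 and 0.46 in JQ1, where 0.35 was the value without the third knockout JQ1 library.

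**Figure D1:**
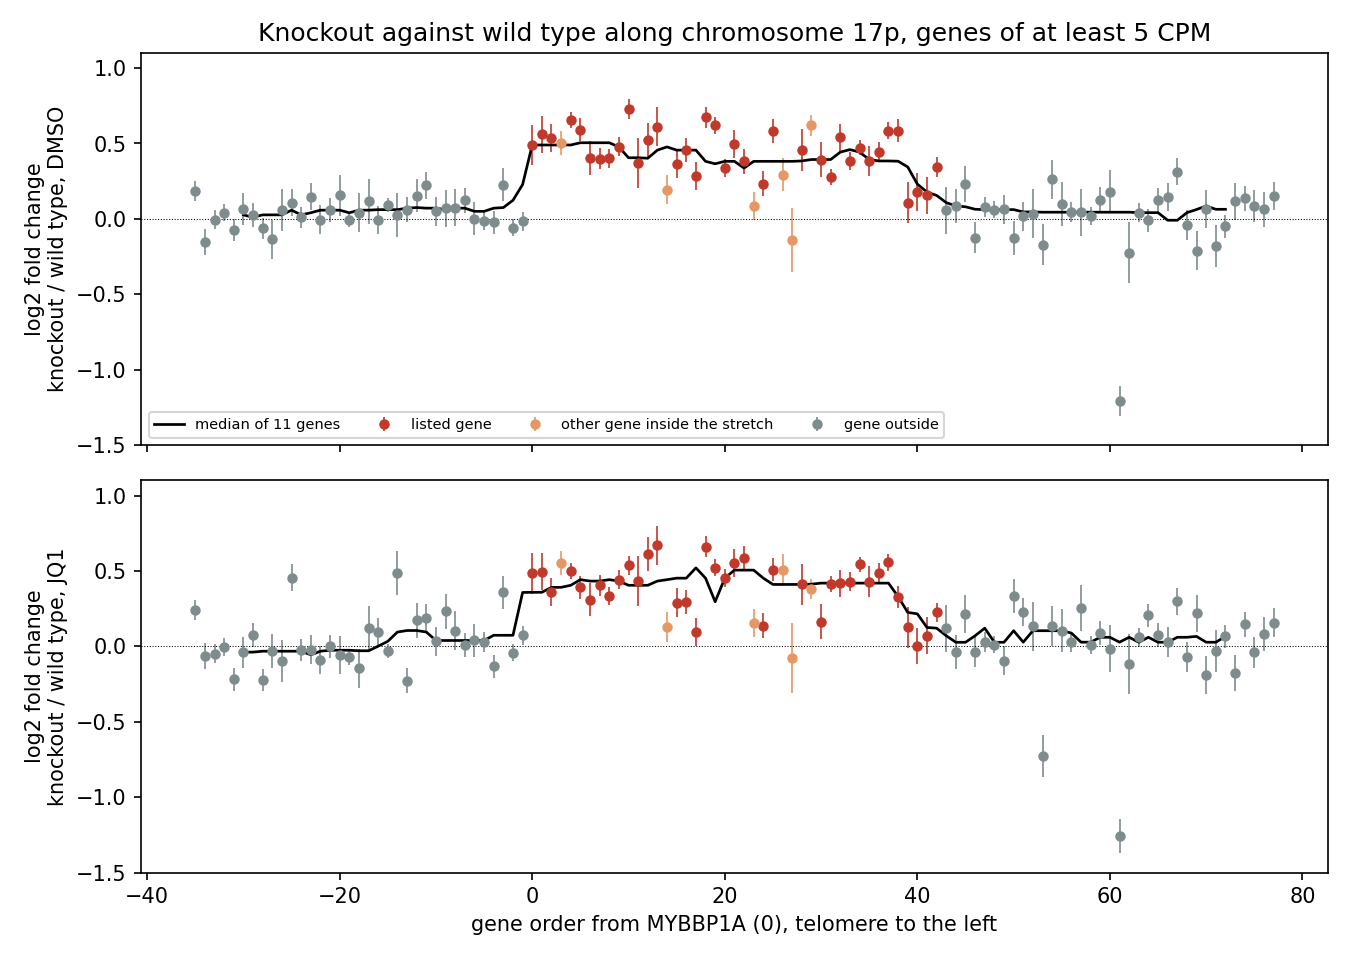
Log2 fold change of knockout over wild type (vertical axis) for genes of at least 5 CPM in chromosome order (horizontal axis, 0 at MYBBP1A, telomere to the left), in DMSO (top) and JQ1 (bottom). Points with bars are values and SE for listed genes (red), other genes of the run (orange) and genes outside it (grey), and the line is the median of 11 neighbouring genes. The red points lie at 0.11 to 0.73 in DMSO and 0.00 to 0.67 in JQ1, with most grey points near 0 on either side and lower values among the last members. NLRP1, at a mean of 4.61 CPM over all libraries, is not shown.

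The rise was present in every knockout library. Each library's member levels were set against the wild-type mean of the same treatment, and a wild-type library against the mean of the other wild-type libraries. The median log2 ratio over members was 0.36, 0.44 and 0.46 in the 3 knockout DMSO libraries and 0.34, 0.38 and 0.50 in the 3 knockout JQ1 libraries. Wild-type libraries gave -0.01, -0.02 and 0.02 in DMSO and 0.09, 0.02 and -0.09 in JQ1. The lowest knockout library thus lay 0.35 above the highest wild-type library in DMSO and 0.24 above it in JQ1. Medians over all tested genes ran from -0.011 to 0.018 in the 12 libraries. Within the knockout groups the first DMSO library was the lowest and the third JQ1 library, which stood apart in its counts, was the highest.

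**Figure D2:**
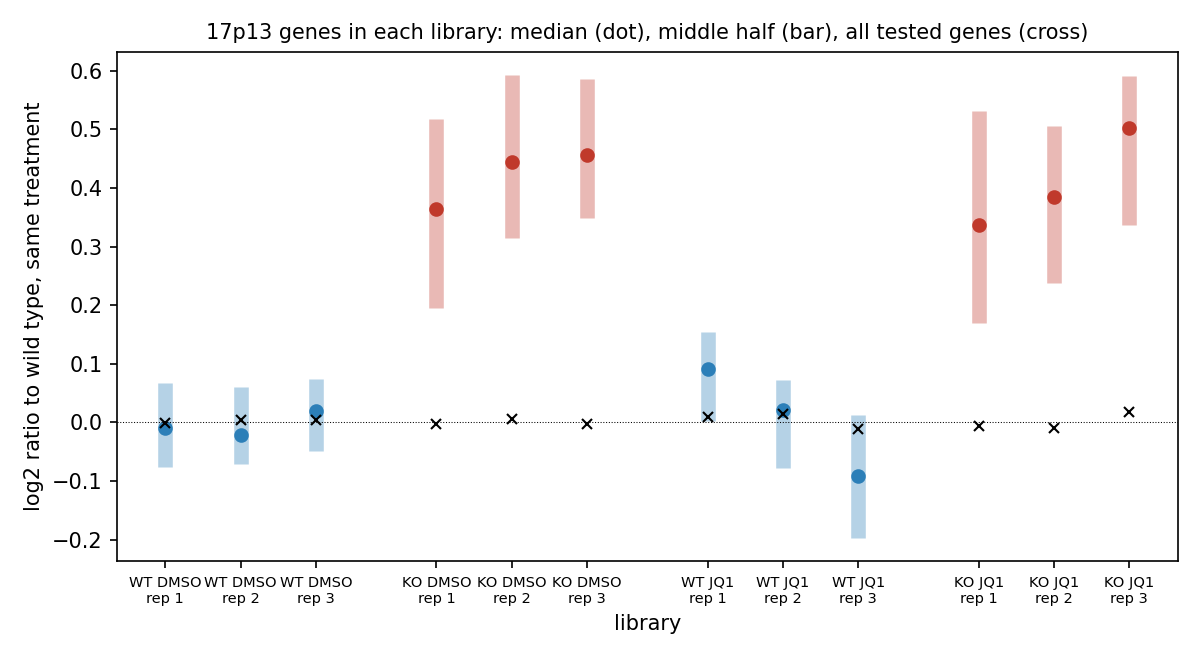
Log2 ratio to wild type of the same treatment (vertical axis) in each of the 12 libraries (horizontal axis). Dots are medians over the 44 tested members, bars their middle 50%, and crosses medians over all tested genes. Knockout medians (red, 0.34 to 0.50) lie above every wild-type median (blue, -0.09 to 0.09), while the crosses stay near 0.

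Summed over the members, CPM was higher in knockout by a like ratio in both treatments. The sum was 2619 ± 32 CPM (SD, n = 3) in wild-type DMSO and 3655 ± 146 CPM in knockout DMSO, a ratio of 1.4. It was 3111 ± 144 CPM in wild-type JQ1 and 4246 ± 218 CPM in knockout JQ1, a ratio of 1.36. PFN1 and EIF5A together gave 31.1% to 35.1% of these sums.

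Member by member the size varied by more than the error of a single gene. Over all 44 tested members, NLRP1 included, the SD of the log2 fold change was 0.36 (DMSO) and 0.39 (JQ1). Their median SE was 0.09 in each treatment. Of the 44, 34 had a fold change averaged over treatments between 0.3 and 0.7 log2, and 26 lay in that range in each treatment. Among the 37 members of at least 5 CPM, all 37 were above 0 in both treatments, with a median of 0.46 and an SD over members of 0.15 in DMSO and 0.43 and 0.17 in JQ1. For these 37 the median SE of a single member was 0.08, which is smaller than their SD in both treatments. No overlap between knockout and wild-type libraries was found for 35 members above and 1 below in DMSO, against 14.8 and 14.7 percent of all tested genes. In JQ1 it was 30 above and 2 below, against 10.7 and 12.4 percent. In both treatments 29 members lay above without overlap (4.69 percent of all tested genes), and 27 were called higher (1.52 percent).

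The values in the 2 treatments come from separate libraries, but both were used to choose the members, so their likeness is only described. Across members they had a Pearson r of 0.83 (44 genes), 0.65 without NLRP1 and 0.76 over the 37 genes of at least 5 CPM. Over the 33 of these from MYBBP1A to GPS2, r was 0.61. Each point is a gene, and genes share libraries and depth.

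**Figure D3:**
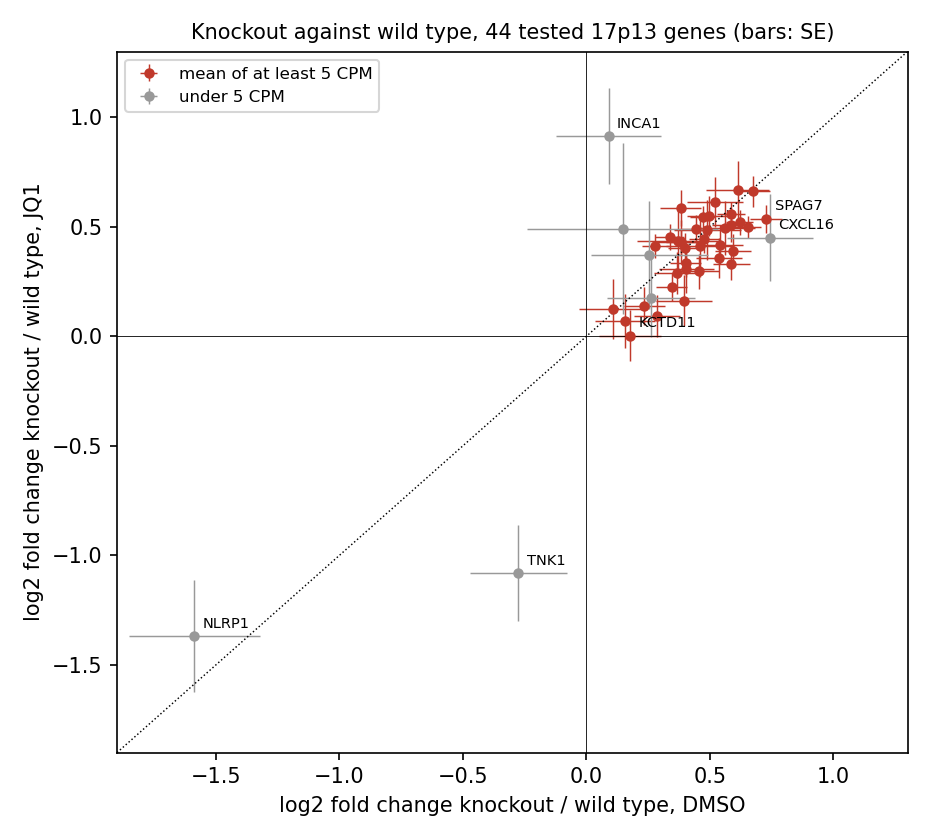
Log2 fold change of knockout over wild type in DMSO (horizontal) and JQ1 (vertical) for the 44 tested members, with SE bars. Red points are members of at least 5 CPM, grey points those under it, and the dotted line marks equal values. Most points lie between 0.3 and 0.7 on both axes, while NLRP1 and TNK1 lie below 0 on both.

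RPAIN, ZNF232 and SPAG7 had the highest knockout ratios averaged over both treatments among members of at least 5 CPM. RPAIN, which carries replication protein A into the nucleus, read 28.4, 29.8 and 28.0 CPM in wild-type DMSO and 46.6, 45.4 and 45.4 CPM in knockout DMSO. With JQ1 it read 33.0, 36.3 and 32.1 CPM in wild type and 58.2, 52.5 and 49.5 CPM in knockout. Groups did not overlap, and the log2 fold change was 0.67 ± 0.07 (SE) in DMSO and 0.66 ± 0.07 in JQ1. ZNF232, a zinc finger protein, read 7.84, 5.56 and 6.05 CPM in wild-type DMSO against 11.1, 9.51 and 9.13 CPM in knockout, and 5.59, 6.01 and 6.21 CPM against 10.0, 8.93 and 9.40 CPM with JQ1. Its knockout libraries were all above the wild-type ones, by 0.61 ± 0.13 and 0.67 ± 0.13 log2. SPAG7, named as a sperm-associated antigen and widely expressed, read 31.7, 31.1 and 33.3 CPM in wild-type DMSO and 51.4, 55.7 and 52.1 CPM in knockout. Under JQ1 it read 48.6, 48.5 and 45.1 CPM in wild type and 69.1, 64.7 and 72.4 CPM in knockout. Its fold change was 0.73 ± 0.06 log2 in DMSO and 0.54 ± 0.06 in JQ1, again with no overlap.

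The 3 members with the highest CPM lay above the medians of the members of at least 5 CPM in both treatments. PFN1 encodes profilin, which binds actin monomers. It read 399, 404 and 415 CPM in wild-type DMSO and 528, 573 and 595 CPM in knockout DMSO, then 590, 569 and 524 CPM in wild-type JQ1 and 734, 732 and 820 CPM in knockout JQ1. Its log2 fold change was 0.48 ± 0.06 in DMSO and 0.44 ± 0.06 in JQ1, with no overlap. EIF5A, a translation elongation factor that carries the amino acid hypusine, read 396, 405 and 427 CPM in wild-type DMSO and 585, 619 and 639 CPM in knockout DMSO. With JQ1 it read 522, 497 and 463 CPM in wild type and 712, 709 and 759 CPM in knockout, and the fold changes were 0.59 ± 0.06 and 0.56 ± 0.06 log2. C1QBP, a mitochondrial matrix protein, read 213, 212 and 230 CPM in wild-type DMSO against 326, 333 and 349 CPM in knockout, and 238, 223 and 221 CPM against 334, 307 and 338 CPM with JQ1. Its groups were also apart, by 0.62 ± 0.06 and 0.52 ± 0.06 log2. Near-identical copies can share reads with EIF5A and PFN1: EIF5AL1 read 0.0887 to 0.914 CPM and the pseudogene PFN1P2 10.1 to 15.0 CPM, both far below the member they copy.

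The lists by role are given as description, beside the same shares of all tested genes (3.47 percent higher in DMSO and 3.01 in JQ1), and nothing is read from their counts. Of 14 tested genes of the nucleus, transcription and RNA, 12 were called higher in DMSO and 11 in JQ1, with medians of 0.47 and 0.49. Of 7 genes of the cytoskeleton, centrosome and trafficking, 6 were called higher in DMSO and 4 in JQ1, with medians of 0.46 and 0.31. KIF1C, a kinesin motor, had 0.52 ± 0.11 in DMSO and 0.61 ± 0.11 in JQ1, and GABARAP, an autophagy protein, 0.47 ± 0.05 and 0.54 ± 0.05. In JQ1 KIAA0753 had 0.14 ± 0.09 and DLG4 0.16 ± 0.12. With any 1 library left out, DLG4 in JQ1 ran from 0.015 to 0.251. Of 5 genes of protein turnover, 3 were called higher in each treatment, among them PSMB6, a catalytic proteasome subunit, with 0.65 ± 0.05 and 0.50 ± 0.05, while NEURL4 and KCTD11 were at 0.00 to 0.18. Of 11 tested genes of mitochondria, metabolism and transport, 6 were called higher in each, with medians of 0.35 and 0.41. Of 7 tested signalling and immunity genes, 4 were called higher in each, among them DVL2, a Wnt pathway adaptor, with 0.54 ± 0.09 and 0.42 ± 0.09, and ARRB2, a beta-arrestin that dampens receptor signals, with 0.54 ± 0.09 and 0.36 ± 0.09. This group also held both members below 0.

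NLRP1, which encodes an inflammasome sensor and lies in the middle of the run, went the other way. It read 6.53, 5.45 and 6.02 CPM in wild-type DMSO and 1.12, 1.68 and 3.23 CPM in knockout DMSO. With JQ1 it read 7.79, 7.09 and 7.66 CPM in wild type and 2.48, 3.81 and 2.50 CPM in knockout. Every knockout library was below every wild-type library, and the log2 fold change was -1.59 ± 0.27 in DMSO and -1.37 ± 0.25 in JQ1. TNK1, a non-receptor tyrosine kinase near the centromeric end, read 2.00, 1.84 and 2.50 CPM in wild-type DMSO and 1.38, 1.72 and 2.18 CPM in knockout, which overlap. With JQ1 it read 2.01, 1.60 and 1.83 CPM in wild type and 0.762, 0.852 and 0.95 CPM in knockout, which do not, at -1.08 ± 0.22 log2. NLRP1 and TNK1 were singled out after their values were seen.

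Smaller values were found beside full ones where genes start head to head. NUP88, a nucleoporin, had 0.19 log2 averaged over treatments and its divergent partner RPAIN 0.67. KIAA0753, a centriolar satellite protein, had 0.19 and its partner TXNDC17, a thioredoxin-like protein, 0.55. Averages of other divergent pairs were closer: PFN1 and ENO3, the latter at a mean of 1.83 CPM, had 0.46 and 0.31, DERL2 and MIS12 had 0.52 and 0.48, CTDNEP1 and ELP5 0.41 and 0.47, SLC25A11 and RNF167 0.40 and 0.37, and DLG4 and ACADVL 0.28 and 0.35. INCA1, at a mean of 1.08 CPM, lay below its partner KIF1C in DMSO (0.09 against 0.52) and above it in JQ1 (0.92 against 0.61). Of the members, 37 overlap another annotated gene, 33 of them a gene on the opposite strand. Libraries were made with a directional kit, and whether counting used the strand is not given in the sources used here, so reads of such pairs may be shared. The median was 0.47 over 15 plus-strand and 0.41 over 22 minus-strand members of at least 5 CPM.

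Another 34 tested genes lie inside the run and are not listed members, and they entered the window medians that chose it. Of these, 2 were called higher in DMSO (5.88 percent) and 7 in JQ1 (20.6 percent) and none lower, with medians of 0.22 and 0.39. Among all tested genes 3.47 and 3.01 percent were called higher and 4.44 and 5.56 percent lower. Nothing is read from these counts. At 5 CPM or more were 6 of them. MED11 and MED31, subunits of the Mediator complex, had 0.51 and 0.29 in DMSO and 0.55 and 0.51 in JQ1, and C17orf49 had 0.62 and 0.38. PIMREG, a mitotic regulator, had 0.09 and 0.16, the transcript AC012146.1 0.19 and 0.13, and the transcript PRAL -0.14 and -0.08.

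On the telomeric side values above 0.4 in both treatments began, among genes of at least 5 CPM, at MYBBP1A. UBE2G1, a ubiquitin-conjugating enzyme and the nearest gene outside with more than 1 CPM, had -0.02 ± 0.06 in DMSO and 0.07 ± 0.06 in JQ1. Then 172 kb follow, in which SPNS2, a lipid transporter gene whose end overlaps that of MYBBP1A on the other strand by 139 bases, is the tested gene, at a mean of 0.538 CPM and 0.56 ± 0.37 in DMSO and 0.64 ± 0.45 in JQ1. The first member, MYBBP1A, encodes a nucleolar protein that binds MYB. It read 107, 117 and 112 CPM in wild-type DMSO and 132, 171 and 170 CPM in knockout DMSO, and 102, 91.1 and 83.5 CPM in wild-type JQ1 and 110, 113 and 163 CPM in knockout JQ1. The groups did not overlap, with 0.49 ± 0.14 log2 in DMSO and 0.48 ± 0.14 in JQ1, where the value without the third knockout JQ1 library was 0.28. GGT6, the second member and a relative of gamma-glutamyl transferase, read 0.186 to 0.527 CPM over all libraries, with overlap in both treatments, at 0.15 ± 0.39 and 0.49 ± 0.39 log2. The 20 nearest genes of at least 5 CPM toward the telomere had medians of 0.06 and 0.04. None was called, and 6 were below 0 in DMSO and 7 in JQ1. The values were not all near 0: CYB5D2 had 0.23 ± 0.11 and 0.36 ± 0.11, and CLUH 0.025 ± 0.145 and 0.485 ± 0.145. Nearer the run, the antisense transcript AC087292.1, at a mean of 0.94 CPM, was called higher in DMSO (1.99 ± 0.54) and had -0.10 ± 0.44 in JQ1.

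On the centromeric side the rise faded within the list. GPS2, a subunit of the NCoR corepressor complex, read 20.9, 21.5 and 22.5 CPM in wild-type DMSO and 32.0, 33.0 and 32.4 CPM in knockout DMSO, and 48.2, 42.8 and 38.9 CPM in wild-type JQ1 against 53.6, 54.7 and 55.0 CPM in knockout JQ1. It was the last member in order with an averaged value above 0.3, at 0.59 ± 0.08 log2 in DMSO and 0.33 ± 0.07 in JQ1. It overlaps EIF5A on the opposite strand. NEURL4, which follows after 63 bases and is known to help limit centriole number, read 24.1, 22.2 and 23.2 CPM in wild-type DMSO and 19.9, 27.8 and 27.3 CPM in knockout. With JQ1 it read 29.1, 26.1 and 26.7 CPM and 26.1, 26.4 and 36.7 CPM. Both pairs of groups overlapped, at 0.11 ± 0.14 and 0.13 ± 0.14 log2, and the JQ1 value without the third knockout JQ1 library was -0.06. Other omissions raised it: when each library was left out in turn, NEURL4 reached at most 0.26 (DMSO) and 0.21 (JQ1). Its lowest DMSO value was 0.04.

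The 4 members of at least 5 CPM from NEURL4 to TMEM256, a stretch of 88.5 kb, had a median averaged value of 0.12, against 0.46 for the 33 before them. This cut was placed after the values were seen, behind the last member above 0.3, so the lower median follows from it. KCTD11, an adaptor of cullin ubiquitin ligases, read 7.87, 7.01 and 6.76 CPM in wild-type DMSO and 7.37, 7.83 and 9.30 CPM in knockout, and 15.1, 14.5 and 14.2 CPM and 12.8, 13.8 and 17.2 CPM with JQ1. Its groups overlapped, at 0.18 ± 0.13 and 0.00 ± 0.12 log2, and without the third knockout JQ1 library the JQ1 value was -0.14. The highest values for KCTD11 with a library left out were 0.26 (DMSO) and 0.09 (JQ1), and the lowest DMSO value was 0.08. PLSCR3, a mitochondrial phospholipid scramblase, read 14.6, 16.0 and 15.9 CPM in wild-type DMSO against 14.0, 18.7 and 19.2 CPM in knockout, and 15.2, 14.9 and 12 CPM against 14.9, 13.6 and 15.7 CPM with JQ1. It also overlapped, at 0.16 ± 0.12 and 0.07 ± 0.12 log2. Omitting a library moved PLSCR3 as low as 0.08 (DMSO) and -0.03 (JQ1), and as high as 0.30 (DMSO) and 0.13 (JQ1). TMEM256, a small membrane protein and the last member, read 31.9, 32.2 and 34.9 CPM in wild-type DMSO and 39.9, 43.0 and 42.9 CPM in knockout, and 46.1, 47.6 and 47.0 CPM and 57.6, 52.1 and 54.7 CPM with JQ1. Of these 4 it alone had no overlap, at 0.34 ± 0.06 and 0.23 ± 0.06 log2. TMEM256 was called higher in DMSO (edgeR adjusted p = 0.00301) and in JQ1 (edgeR adjusted p = 0.0392).

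Beyond TMEM256 the nearest genes with more than 5 CPM were near 0 or within a few SE of it. NLGN2, a synaptic adhesion protein, had 0.06 ± 0.16 in DMSO and 0.12 ± 0.16 in JQ1, TMEM102 0.09 ± 0.11 and -0.04 ± 0.11, and CHRNB1, a muscle acetylcholine receptor subunit, 0.23 ± 0.12 and 0.22 ± 0.13. The nearest 20 genes of at least 5 CPM had medians of 0.05 and 0.03, with 5 below 0 in DMSO and 7 in JQ1. None was called higher. Called lower were 1 in DMSO and 2 in JQ1, beside 4.44 and 5.56 percent of all tested genes. DNAH2 had -1.21 ± 0.10 and -1.26 ± 0.11, and CD68 -0.17 ± 0.14 and -0.73 ± 0.14. Both ends of the rise depended on the window. Medians of 11 tested genes stayed above 0.2 in both treatments for 48 windows in a row, centred from RN7SL774P to KIAA0753. The next 2 windows, centred on TXNDC17 and MED31, dipped to 0.12 in DMSO with 0.34 in JQ1. From C17orf100 (0.23 and 0.51) to EIF5A (0.44 and 0.33) every window was above 0.2 in both treatments again, and at GPS2 the medians were 0.38 and 0.13. With 7 genes the longest unbroken run on the chromosome went from MYBBP1A to C17orf100. It went from UBE2G1 to CTDNEP1 with 21 genes, and from UBE2G1 to KCTD11 with 11 genes of at least 5 CPM.

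JQ1 itself split the members, which the choice of genes did not fix. In wild-type cells 14 of 44 members rose and 5 fell, beside 16.9 and 16.2 percent of all tested genes, and in knockout cells 15 rose and 6 fell, beside 16.7 and 17.8 percent (edgeR's quasi-likelihood test, Benjamini-Hochberg adjusted p of 0.05). Among members of at least 5 CPM 14 of 37 rose and 4 fell in wild type, beside 28.3 and 18.1 percent of tested genes at that level, and 15 rose and 4 fell in knockout, beside 27.3 and 21.9 percent. The median log2 change over members was 0.10 in wild type and 0.15 in knockout, against -0.034 and -0.004 over all tested genes. In both genotypes 12 rose and 4 fell, beside 12.8 and 12.4 percent of tested genes at any level. The share at 5 CPM or more, which was higher in each genotype, was not taken for this count. None changed in opposite directions, and 20 passed in neither. Scaling by library totals alone lowered the median of all genes by 0.13 and 0.12 log2 and gave 9 up and 8 down in wild type and 10 up and 13 down in knockout. Without the third knockout JQ1 library the knockout median was 0.03. In wild type, leaving out any 1 of the 6 wild-type libraries brought the fallen members to 2 or 3.

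**Figure D4:**
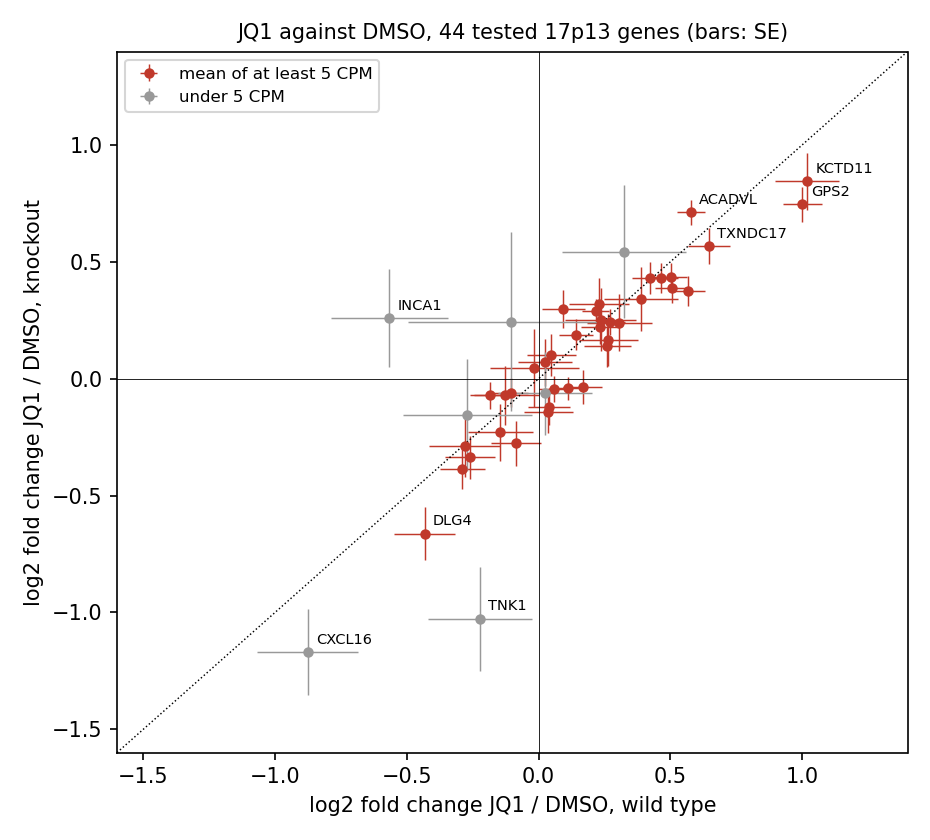
Log2 fold change of JQ1 over DMSO in wild type (horizontal) and knockout (vertical) for the 44 tested members, with SE bars. Red points are members of at least 5 CPM, grey points those under it, and the dotted line marks equal values. KCTD11, GPS2 and ACADVL lie at the upper right and CXCL16 and DLG4 at the lower left, with most points close to the line.

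KCTD11, GPS2 and ACADVL had the highest JQ1 fold change averaged over the genotypes among members that rose in both. KCTD11, with the values given above, rose in every JQ1 library over every DMSO library, by 1.02 ± 0.12 log2 in wild type (edgeR adjusted p = 1.58e-05) and 0.85 ± 0.12 in knockout (edgeR adjusted p = 7.61e-05). GPS2 rose by 1.00 ± 0.07 in wild type (edgeR adjusted p = 1.67e-07) and 0.75 ± 0.07 in knockout (edgeR adjusted p = 2.15e-06), also without overlap. ACADVL, which starts the mitochondrial breakdown of very long-chain fatty acids, read 194, 180 and 188 CPM in wild-type DMSO and 291, 287 and 262 CPM with JQ1. In knockout it read 224, 222 and 237 CPM and then 365, 373 and 379 CPM. It rose by 0.58 ± 0.05 log2 (edgeR adjusted p = 1.55e-06) and 0.71 ± 0.05 (edgeR adjusted p = 1.56e-07). PFN1 rose by 0.47 ± 0.06 and 0.43 ± 0.06, and TXNDC17 by 0.65 ± 0.08 and 0.57 ± 0.08, which in wild type is more than the rise of ACADVL.

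CXCL16, DLG4, KIAA0753 and ZNF594 fell in both genotypes. ZNF594 changed by -0.26 ± 0.09 log2 in wild type (edgeR adjusted p = 0.0456), close to the threshold, and by -0.34 ± 0.09 in knockout (edgeR adjusted p = 0.0111). CXCL16, a chemokine made as a membrane-bound protein, read 3.76, 3.51 and 4.95 CPM in wild-type DMSO and 2.29, 2.45 and 1.95 CPM with JQ1, and in knockout 5.90, 7.73 and 6.92 CPM and then 2.51, 3.90 and 2.75 CPM. JQ1 libraries were below all DMSO libraries of the same genotype, by -0.88 ± 0.19 log2 (edgeR adjusted p = 0.00246) and -1.17 ± 0.18 (edgeR adjusted p = 0.000154). DLG4, the synaptic scaffold PSD-95, read 26.3, 31.2 and 29.5 CPM in wild-type DMSO and 21.5, 23.8 and 19.1 CPM with JQ1, and in knockout 34.9, 40.2 and 39.0 CPM and then 22.4, 20.9 and 28.6 CPM. Its changes were -0.43 ± 0.12 (edgeR adjusted p = 0.00942, and 0.051 without the third wild-type JQ1 library, at -0.35) and -0.66 ± 0.12 (edgeR adjusted p = 0.000372).

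KIAA0753 read 19.3, 20.2 and 18.7 CPM in wild-type DMSO and 15.2, 14.8 and 17.6 CPM with JQ1, and in knockout 22.1, 23.8 and 22.6 CPM and then 16.3, 17.4 and 18.7 CPM. The groups did not overlap, at -0.29 ± 0.09 (edgeR adjusted p = 0.0164) and -0.39 ± 0.08 log2 (edgeR adjusted p = 0.00246). Its wild-type call was lost without the second DMSO library (-0.26, edgeR adjusted p = 0.0685) and without the first or the second JQ1 library (-0.26 and -0.24, edgeR adjusted p = 0.0742 and 0.0809). For RPAIN the JQ1 rise was 0.23 ± 0.07 in wild type (edgeR adjusted p = 0.0227) and 0.22 ± 0.07 in knockout (edgeR adjusted p = 0.025). It was lost in wild type without the first or the third DMSO library or the second JQ1 library (0.23, 0.22 and 0.18, edgeR adjusted p = 0.0708, 0.0843 and 0.113). In knockout it was lost without the second or the third DMSO library or the first JQ1 library (0.21, 0.22 and 0.16, edgeR adjusted p = 0.0812, 0.0668 and 0.114).

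The knockout's rise was not shown to differ between the treatments for any member. In the test of that difference, the interaction, 0 of 44 members passed with edgeR or with DESeq2, beside 0.134 percent of all tested genes. At an unadjusted p under 0.05 there were 3, beside 8.37 percent of tested genes, and they were TNK1, INCA1 and GPS2. TNK1 had -0.81 ± 0.30 log2 (edgeR unadjusted p = 0.0164, adjusted p = 0.468). INCA1, which binds a cyclin-dependent kinase complex, read 1.07, 1.06 and 1.1 CPM in wild-type DMSO, 1.12, 1.20 and 1.12 CPM in knockout DMSO, 0.848, 0.816 and 0.532 CPM in wild-type JQ1 and 1.14, 1.42 and 1.55 CPM in knockout JQ1. Its interaction was 0.82 ± 0.31 log2 (edgeR unadjusted p = 0.0170, adjusted p = 0.474). For GPS2 it was -0.26 ± 0.11 (edgeR unadjusted p = 0.0277, adjusted p = 0.524). The median SE of an interaction was 0.13 log2 over members, so differences of that order between treatments were not detectable for a single gene. Larger ones also went uncalled, such as -0.26 for GPS2 and -0.81 for TNK1.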

How the data were processed

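RNA was depleted of ribosomal RNA and sequenced from directional libraries, per the labels' protocols. The authors deposited estimated counts per gene symbol and a normalized signal, and the submitters' processing notes name Trim Galore, cutadapt, FastQC, MultiQC, kallisto, DESeq2 and the build GRCh38.p10, with no versions or roles.

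Counts were rounded, a change from the raw counts planned for. Genes were filtered with filterByExpr over 4 groups (21698 tested) and scaled with TMM (factors 0.926 to 1.065). All 12 libraries were fitted with 1 mean per group and no replicate block, in edgeR 4.0.16 (limma 3.58.1, R 4.3.3), with Benjamini-Hochberg adjustment over all tested genes and a threshold of 0.05. Fold changes used a prior count of 0.125, and the SE was taken as the absolute log2 change over the root of the F statistic. CPM are per 1000000 of the scaled library, and ratios per library came from log2 CPM (prior count 2). The scripts were tested on simulated data.

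The members, role lists and tests were chosen with earlier results of these data known. Members given with every library's value were the first and last 2 in order, the 3 highest and 3 lowest averaged knockout ratios of at least 5 CPM, the 3 of highest CPM, and 3 up and 3 down with JQ1 in both genotypes. Positions come from GENCODE 29. Alternatives were DESeq2 1.42.0, its size factors, library totals, no filter, limma on log2 of the deposited signal plus 1, only the groups compared, a replicate block, and leaving out each library.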

Additional observations from a re-analysis of the deposited data

How the results depend on the processing

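The knockout medians kept their sign under all 19 alternatives, at 0.36 to 0.47 in DMSO and 0.35 to 0.46 in JQ1. The DMSO median was 0.404 to 0.466 when 1 library was left out, with 0.466 without the first knockout DMSO library. Between 25 and 35 members were called higher by knockout in DMSO, and between 20 and 30 in JQ1. With library totals alone, JQ1 in wild type gave 9 members up, 8 down and a median of -0.025, which reverses the sign. In knockout it gave 10 up, 13 down and a median of 0.035. With limma on the normalized signal 2 members fell in wild type. Leaving out 1 library gave 2 to 6 members down and 11 to 17 up in wild type, and a knockout median of 0.027 to 0.173, with 0.027 without the third knockout JQ1 library. The cause of these changes was not tested. The SD over members fell in DMSO from 0.359 to 0.147 at 5 CPM or more and 0.197 without NLRP1, and in JQ1 from 0.387 to 0.167 and 0.288. Leaving out NLRP1 was chosen after seeing the data. The longest run of windows was 48 with 11 tested genes, 49 with 7 and 70 with 21. It was 42 with 11 genes of at least 5 CPM. Window size and gene set differ between these settings, so the counts do not compare as lengths of the rise. Of the alternative values for named genes, 1527 stayed on their side of the threshold, 58 lost a call, 13 gained one and 0 changed sign of a call.

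The shared replicate numbers did not pair the libraries: 18 same-numbered pairs correlated at -0.486 to 0.374, 4 of them over 0.1, and 10 of 36 best partners had the same number. With the replicate number as a block, 28 members were called higher in DMSO and 26 in JQ1 by knockout, 13 up and 4 down with JQ1 in wild type, and 14 up and 6 down in knockout. Members of a few counts, such as GGT6 and the 4 untested ones, are limited by depth.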

Other observations

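Along all chromosomes, 105 of 20866 windows of 11 tested genes had medians above 0.3 in both knockout comparisons. Of these, 53 lay in the run from MYBBP1A to TMEM256, which held 78 windows, and 20 lay on chromosome 15. At medians above 0.2 the count was 205, with 68 in the run and 37 on chromosome 4. These windows overlap and share genes, and no test was made of them.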
